A study of Gallus gallus with 24 samples.

Results

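The genes described are the carriers of the SLC25 family, transporters that mostly sit in the inner mitochondrial membrane, together with UCP3 and the mitochondrial pyruvate carrier genes. SLC25A17, a peroxisomal carrier, and SLC25A46, an outer membrane protein, are exceptions and are counted with the rest. They were taken by symbol from a table of normalized read counts: every row named SLC25A with a number, plus rows named UCP3, MPC1 or MPC2. This gave 38 of 24356 genes, namely 36 SLC25A rows, UCP3 and MPC2. MPC1 and the family numbers with no row of that name, among them SLC25A10, SLC25A18 and SLC25A23, are not analysed here.

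SLC25 carriers move metabolites, nucleotides and cofactors across a membrane that is otherwise closed to them. ADP/ATP and phosphate carriers feed ATP synthase and export its product, the pyruvate carrier admits the end product of glycolysis, and the aspartate/glutamate and oxoglutarate carriers run the malate-aspartate shuttle that brings cytosolic reducing equivalents in. Other members carry citrate out for lipid synthesis, acylcarnitines in for fatty acid oxidation, and amino acids, iron or cofactors to the enzymes of the matrix. Retinal pigment epithelium (RPE) is the pigmented layer behind the retina. In the chick embryo it can turn into neural retina under fibroblast growth factor 2 (FGF2). Dichloroacetate (DCA) inhibits the pyruvate dehydrogenase kinases, which favours the use of pyruvate inside mitochondria.

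RPE explants from pathogen-free chicken embryos, all at embryonic day 4, were cultured in maintenance medium alone (control), with FGF2 at 10 ng/ml, with DCA at 20 mM, or with both agents at these doses. Each condition was held for 24 or 48 h, which makes 8 groups of 3 biological replicates and 24 libraries of polyadenylated RNA. Every replicate pooled 3 explants, so the spread between single explants cannot be seen. All 8 groups shared the maintenance medium, and the controls received neither agent. Levels are normalized read counts, given per library or as mean ± SD (n = 3). They are not corrected for transcript length, so levels are compared between groups and not between genes. Changes are log2 fold changes ± SE of log2(normalized count + 1) from 1 limma model of all 8 groups, and a gene was called at an adjusted p under 0.05 over all genes tested.

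Reads counted in genes, recovered from the normalized counts, ran from 32818162 to 72724381 per library, with a median of 37457750. The 2 libraries with the most were FGF2 replicate 3 at 24 h and at 48 h. RPE and pigment markers were present in every group, with none of 14 at 0. Markers of other tissues were present too and moved with treatment. At 24 h, FGF2 lowered 10 of 11 markers of periocular mesenchyme and raised 9 of 9 of retinal progenitors, and DCA added to FGF2 raised 8 of 11 and lowered 5 of 9 of them. Over all genes tested, FGF2 lowered 14.3% and raised 15.5% at 24 h, and added DCA raised 18.1% and lowered 17.8%. With DCA alone at 24 h, RPE and pigment markers summed to 155967 to 184768, beside 196386 to 230369.8 in control. The sum of leukocytes was 3428 to 4113 beside 5635 to 6791, and that of mesenchyme 192281 to 223628 beside 151571 to 164123. Sums of retinal progenitors, endothelium and red blood cells overlapped with control. At 48 h, FGF2 lowered 14 of 14 RPE and pigment markers, 11 of 11 of mesenchyme and 7 of 7 of endothelium, and raised 8 of 9 of retinal progenitors. It lowered 27.7% and raised 26.9% of all genes tested. The mesenchyme markers summed to 325596 to 385092 normalized counts per library in control at 48 h, 63551 to 74557 with FGF2 and 162629 to 189022 with both agents. DCA added to FGF2 at 48 h raised 11 of 11 mesenchyme markers and lowered 7 of 9 progenitor markers, whose sum went from a range of 103798 to 107899 to one of 64536 to 73959. In that comparison 25.4% of all genes were higher and 27.4% lower. DCA alone at 48 h lowered 10 of 14 RPE and pigment markers, 7 of 7 of endothelium and 4 of 6 of leukocytes, and raised 1, 0 and 1. It lowered 17.1% and raised 16.9% of all genes tested. The pigment sum was 241652 to 257672 in control and 87689.6 to 174903 with DCA. That of endothelium was 30302 to 45949 and 12448 to 27583, and that of leukocytes 16072 to 22485 and 8572 to 10844. In bulk RNA, fewer cells of a type and less RNA per cell cannot be told apart, and the part of these shifts in the carrier results was not tested.

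Of the 38 genes, 37 had a mean of at least 10 normalized counts and were tested, within 15001 tested genes. FGF2 against control called 9 of them at 24 h, or 24.3% beside 29.8% of all genes tested. Of these, 7 were higher and 2 lower, where 15.5% and 14.3% of all genes were. By 48 h FGF2 called 20 carriers, or 54.1% beside 54.6%, with 11 higher and 9 lower, beside 26.9% and 27.7% of all genes. Among the 20 is UCP3, which reached a mean of 10 only through its FGF2 libraries at 48 h. Without UCP3 the count is 19. DCA against control called 11 carriers at 24 h, or 29.7% beside 20.1%, with 8 higher and 3 lower, beside 10.6% and 9.48%. By 48 h DCA called 14, or 37.8% beside 34.1%, with 10 higher and 4 lower, beside 16.9% and 17.1%. When DCA was added to FGF2, 16 carriers were called at 24 h, or 43.2% beside 35.8%, with 7 higher and 9 lower, beside 18.1% and 17.8%. By 48 h that comparison called 22, or 59.5% beside 52.8%, with 13 higher and 9 lower, beside 25.4% and 27.4%. With only the 6 libraries of the comparison in the model, the 24 h counts were 5 for FGF2 and 5 for DCA. Most of these shares lay near the background of all genes, and no share was tested against it. The carriers' median log2 fold change lay between -0.06 and 0.14 in these 6 comparisons, beside -0.04 to -0.01 over all genes tested. Members moved in both directions in every comparison. At each time, FGF2 against control and DCA added to FGF2 share the FGF2 libraries, so opposite changes in the 2 comparisons are not independent.

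**Figure D1:**
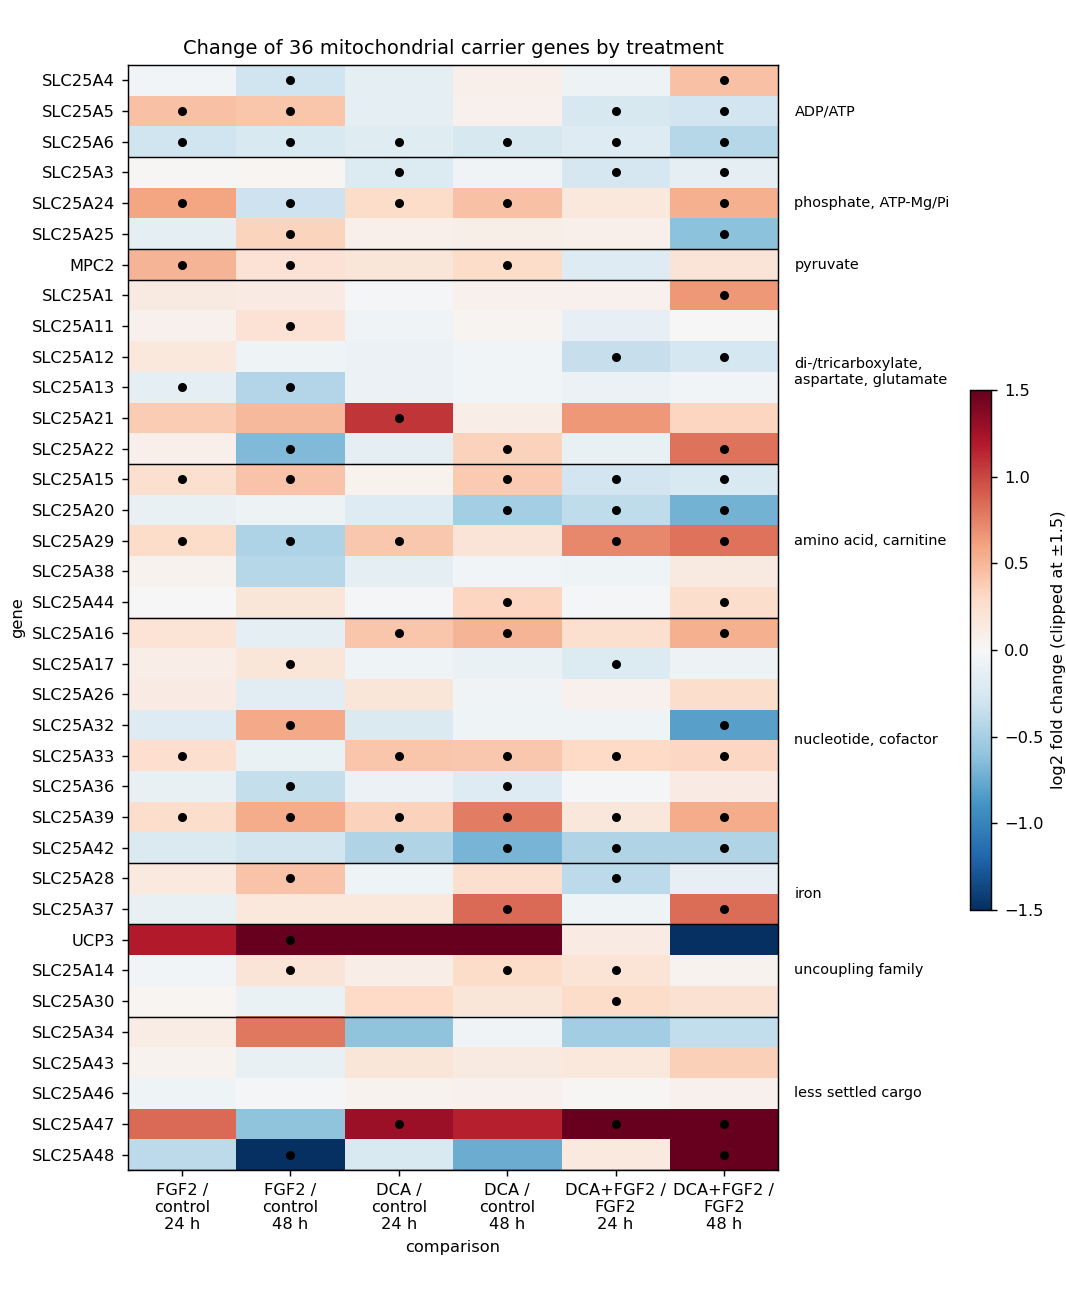
Log2 fold change (colour, clipped at ±1.5) of 36 tested carrier genes (rows, by cargo) in 6 comparisons of 3 against 3 libraries (columns). A dot marks an adjusted p under 0.05 over all genes, and both colours occur among the dots of every column. SLC25A40 was not tested, and the UCP3 colours rest on counts near 0.

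The family's reads were dominated by SLC25A6, one of the ADP/ATP carriers that exchange mitochondrial ATP for cytosolic ADP, and SLC25A6 (ENSGALG00000016691) fell with FGF2, with DCA and with time in culture. Its counts at 24 h were 105514, 99015 and 93069 in control, 90009, 90448 and 82314 with DCA, 78595, 80871 and 82577 with FGF2 and 74693, 66489 and 70727 with both. The counts at 48 h were 73595, 70548 and 72836 in control, 61349, 64242 and 57697 with DCA, 61123, 61308 and 62607 with FGF2 and 44832, 46654 and 45677 with both. All 3 control libraries at 24 h lay above every other library, and all 3 libraries with both agents at 48 h lay below every other. FGF2 lowered SLC25A6 at 24 h (-0.30 ± 0.056, adjusted p = 0.00028) and at 48 h (-0.23 ± 0.056, adjusted p = 0.0014). DCA lowered it alone at 24 h (-0.18 ± 0.056, adjusted p = 0.027) and 48 h (-0.24 ± 0.056, adjusted p = 0.0018), and in the presence of FGF2 at 24 h (-0.19 ± 0.056, adjusted p = 0.0098) and 48 h (-0.43 ± 0.056, adjusted p = 1.2e-06). Control explants lost it between 24 and 48 h (-0.45 ± 0.056, adjusted p = 9.9e-06). The call at 24 h was lost for DCA alone without control 24 h replicate 1, control 24 h replicate 2 or DCA 24 h replicate 3 (adjusted p up to 0.14), and for DCA with FGF2 without DCA+FGF2 24 h replicate 2 (adjusted p = 0.066).

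The 38 genes together took 0.467% ± 0.016 of all normalized counts in control at 24 h and 0.310% ± 0.0063 with both agents at 48 h (mean ± SD, n = 3). Control at 48 h lay between them, at 0.39% ± 0.0018. SLC25A6 alone took 0.256% ± 0.013 in control at 24 h, 0.188% ± 0.0043 in control at 48 h and 0.112% ± 0.0037 with both agents at 48 h. The other 37 genes held between 0.198% and 0.218% in the means of all 8 groups. Most of the decline from control at 24 h to both agents at 48 h was thus that of SLC25A6. When DCA was added to FGF2 at 24 h, the other 37 genes fell as well, from 0.218% ± 0.0026 to 0.199% ± 0.006. SLC25A6 went from 0.201% ± 0.0045 to 0.173% ± 0.0085 there.

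SLC25A5 (ENSGALG00000008675), an ADP/ATP carrier that dividing mammalian cells favour, rose where SLC25A6 fell under FGF2. It stood at 9139.6, 8494 and 8397 in control and 11600, 11919 and 11786 with FGF2 at 24 h, with no overlap (0.44 ± 0.061, adjusted p = 9.4e-06), and DCA added to FGF2 lowered it to 10008 ± 848 (-0.24 ± 0.061, adjusted p = 0.0047). At 48 h the values were 7401, 8287 and 7591 in control and 10518, 10556 and 9845 with FGF2, again apart (0.41 ± 0.061, adjusted p = 7.4e-06). With DCA added to FGF2 it was lower at 48 h too, at 8420.3 ± 483 (-0.29 ± 0.061, adjusted p = 4e-04), and the effect of DCA differed between explants with and without FGF2 (-0.36 ± 0.087, adjusted p = 0.0036). SLC25A4, the form most used by mammalian heart and skeletal muscle, went the other way at 48 h. It was lower with FGF2 than in control (-0.30 ± 0.08, adjusted p = 0.0031), with 2459 ± 135 beside 3034 ± 287, and higher with both agents than with FGF2 (0.44 ± 0.08, adjusted p = 9.5e-05), at 3325 ± 41.1. Its DCA effect was larger with FGF2 than without (0.36 ± 0.11, adjusted p = 0.02), a call lost without control 48 h replicate 3, DCA 48 h replicate 2 or FGF2 48 h replicate 3 (adjusted p up to 0.065). Skeletal muscle markers summed to 2671 to 4191 in control, 387 to 585 with FGF2 and 1972 to 2511 with both at 48 h. Of 7 tested, 5 were lower with FGF2, and 2 were higher and 1 lower when DCA was added. Over all genes, 27.7% were lower with FGF2, and 25.4% were higher and 27.4% lower when DCA was added. At 24 h the muscle sum was 1132 to 1660.4 in control and 676 to 979 with FGF2. FGF2 gave -0.036 (adjusted p = 0.79) for SLC25A4 at that time. Control explants gave -0.11 (adjusted p = 0.4) for SLC25A4 between 24 and 48 h. The part of the muscle markers in the SLC25A4 result was not tested.

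Of the reads that fell on the 3 ADP/ATP carrier genes, SLC25A6 drew 89.3% ± 0.33 in control at 24 h, 84.4% ± 0.31 with FGF2 at 24 h, 82.9% ± 0.77 with FGF2 at 48 h and 79.6% ± 0.37 with both agents at 48 h (mean ± SD, n = 3). SLC25A5 took 7.81% ± 0.18, 12.3% ± 0.2, 13.8% ± 0.59 and 14.6% ± 0.49 in the same groups. In control at 48 h the shares were 87% ± 0.94 for SLC25A6 and 9.34% ± 0.67 for SLC25A5. With DCA alone at 48 h they were 84.4% ± 0.69 and 11.2% ± 0.49. These are shares of reads and not of molecules, and since the 3 genes are close paralogs, reads that match more than 1 of them could have been assigned to either.

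**Figure D2:**
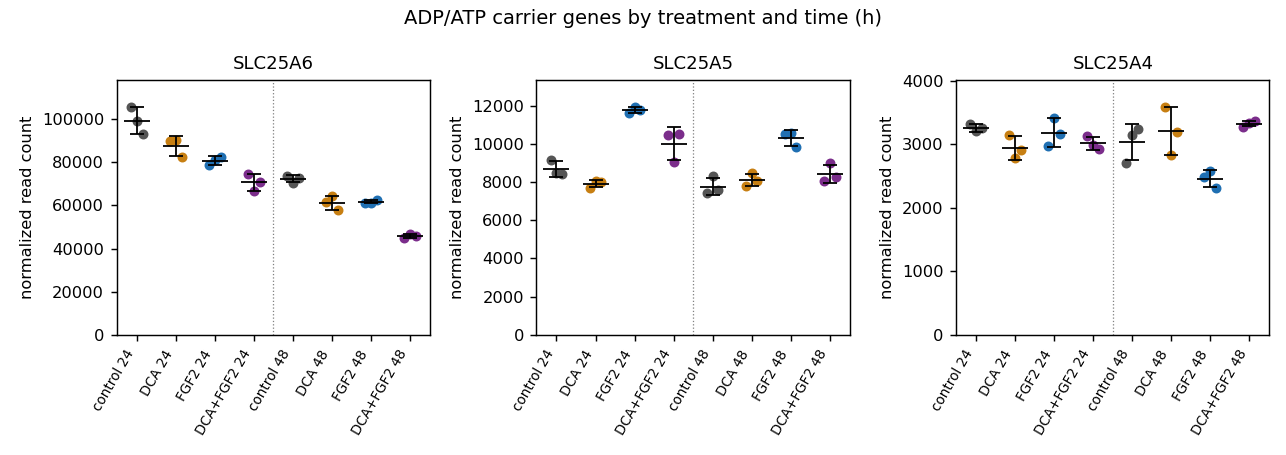
Normalized read counts of the 3 ADP/ATP carrier genes in each library (points) by treatment and time in h, with mean and SD (bars, n = 3 per group, each axis from 0). SLC25A6 is lowest with both agents at 48 h, SLC25A5 has its 2 highest means with FGF2 alone, and SLC25A4 is lowest with FGF2 at 48 h.

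The phosphate carrier SLC25A3, which supplies ATP synthase with phosphate, fell with DCA at 24 h, both alone (-0.20 ± 0.053, adjusted p = 0.0095) and with FGF2 (-0.26 ± 0.053, adjusted p = 0.00074). At 48 h DCA lowered it with FGF2 (-0.15 ± 0.053, adjusted p = 0.025), and DCA alone gave -0.06 (adjusted p = 0.45). FGF2 alone gave 0.02 at 24 h and 0.029 at 48 h, neither called, and controls fell between 24 and 48 h (-0.29 ± 0.053, adjusted p = 6e-04). The DCA call at 24 h was lost without control 24 h replicate 1 (adjusted p = 0.068), and that with FGF2 at 48 h without any 1 of the 6 libraries other than FGF2 48 h replicate 3 or DCA+FGF2 48 h replicate 2 (adjusted p up to 0.08, without FGF2 48 h replicate 1).

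The calcium-regulated ATP-Mg/phosphate carriers SLC25A24 and SLC25A25, which adjust the adenine nucleotide content of the matrix, parted ways under FGF2. SLC25A24 (ENSGALG00000001938) was 2046, 1872 and 1790.3 in control and 2975, 2779.5 and 2847 with FGF2 at 24 h, with every FGF2 library above every control (0.59 ± 0.10, adjusted p = 5.3e-05). By 48 h the order had turned, with 2402, 2267 and 2420.1 in control and 2191, 1793 and 1779.6 with FGF2 (-0.30 ± 0.10, adjusted p = 0.01), and the change in the FGF2 effect was itself called (-0.90 ± 0.14, adjusted p = 4e-05). That lower level at 48 h lost its call without FGF2 48 h replicate 2 or FGF2 48 h replicate 3 (adjusted p up to 0.055). DCA raised SLC25A24 alone at 48 h (0.43 ± 0.10, adjusted p = 0.0014) and with FGF2 at 48 h (0.53 ± 0.10, adjusted p = 8.4e-05). It was also called with DCA alone at 24 h (0.28 ± 0.10, adjusted p = 0.044), which was lost without any 1 of the 6 libraries other than control 24 h replicate 1 or DCA 24 h replicate 3 (adjusted p up to 0.18, without DCA 24 h replicate 1).

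SLC25A25 (ENSGALG00000005095) was highest with FGF2 and lowest with both agents at 48 h. Its counts at 24 h were 1228, 1185 and 1152 in control, 1186, 1279 and 1292 with DCA, 1104, 1208 and 938 with FGF2 and 1109, 1205 and 1100.2 with both, each treated group overlapping with control. After 48 h they were 1037, 1254 and 1026 in control, 1139, 1233 and 1149 with DCA, 1336, 1349 and 1473 with FGF2 and 948, 951 and 814 with both. FGF2 libraries at 48 h were all above control (0.33 ± 0.10, adjusted p = 0.0056), and those with both agents were all below those of control and of FGF2. DCA lowered SLC25A25 when FGF2 was present (-0.62 ± 0.10, adjusted p = 1.3e-05) and gave 0.091 (adjusted p = 0.49) when it was absent, a difference that passed the test (-0.71 ± 0.13, adjusted p = 0.00044). The FGF2 effect also rose between the times (0.47 ± 0.13, adjusted p = 0.011).

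Genes that admit calcium to the matrix, listed as MCU, its regulators and LETM1, were called lower with FGF2 at 48 h in 4 of 7 cases and higher with DCA added to FGF2 at 48 h in 4 of 7, with none in the opposite direction in either comparison. Over all genes, 27.7% were lower in the former and 25.4% higher in the latter.

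MPC2, a subunit of the carrier that takes pyruvate into mitochondria, rose with FGF2 at 24 h, from 1939, 1788 and 1766 in control to 2658, 2531 and 2618 (0.51 ± 0.088, adjusted p = 0.00013). At 48 h it was 1929 ± 67 in control, 2246 ± 36.8 with FGF2 (0.22 ± 0.088, adjusted p = 0.04), 2339 ± 218 with DCA (0.27 ± 0.088, adjusted p = 0.021) and 2566 ± 135 with both. The FGF2 call at 48 h was lost without any 1 of the 6 libraries (adjusted p up to 0.12, without control 48 h replicate 1). The DCA call was lost without control 48 h replicate 1 or DCA 48 h replicate 2 (adjusted p up to 0.11). DCA added to FGF2 gave -0.19 (adjusted p = 0.1) at 24 h and 0.19 (adjusted p = 0.076) at 48 h.

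SLC25A1 (ENSGALG00000047077), which exports the citrate that ATP citrate lyase (ACLY) splits for lipid synthesis, rose where both agents met at 48 h. Counts at 24 h were 2523, 2426 and 2541 in control, 2369, 2597 and 2363 with DCA, 2661, 2717 and 2816 with FGF2 and 2875, 2911 and 2777 with both. At 48 h the values were 2590.4, 2394 and 2464 in control, 2953, 2461 and 2405 with DCA, 2732, 2839.9 and 2529 with FGF2 and 4579.9, 3861 and 4268 with both. The 3 libraries with both agents at 48 h lay above every other library. It rose over FGF2 (0.65 ± 0.075, adjusted p = 2.6e-07), DCA without FGF2 gave 0.065 (adjusted p = 0.54), and the difference between them passed the test (0.58 ± 0.11, adjusted p = 0.00027). ACLY moved the opposite way in that comparison (-0.36 ± 0.066, adjusted p = 0.00011), after a rise with FGF2 alone at 48 h (0.90 ± 0.066, adjusted p = 2.7e-10).

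Both aspartate/glutamate carriers, which drive the malate-aspartate shuttle, had lower calls, in different comparisons. SLC25A13 fell with FGF2, from 6825, 7142 and 6975 in control to 5135, 5261 and 5101 at 48 h (-0.43 ± 0.051, adjusted p = 2.7e-07), more than at 24 h (-0.14 ± 0.051, adjusted p = 0.043), with the difference called (-0.29 ± 0.072, adjusted p = 0.0037). The 24 h call was lost without any 1 of the 6 libraries (adjusted p up to 0.12, without FGF2 24 h replicate 2). DCA gave -0.041 (adjusted p = 0.57) alone and -0.037 (adjusted p = 0.57) with FGF2 at 48 h. SLC25A12 fell with DCA in the presence of FGF2 at 24 h (-0.34 ± 0.075, adjusted p = 0.0012) and 48 h (-0.26 ± 0.075, adjusted p = 0.006), from 2019 ± 36 to 1687 ± 71 at 48 h, and FGF2 alone gave -0.062 (adjusted p = 0.51). SLC25A11, the oxoglutarate/malate exchanger of the same shuttle, was higher with FGF2 at 48 h (0.22 ± 0.075, adjusted p = 0.017), a call lost without control 48 h replicate 3 or FGF2 48 h replicate 2 (adjusted p up to 0.073). Among the shuttle and citrate enzymes, 6 of 8 changed when DCA was added to FGF2 at 48 h, 1 higher and 5 lower, where 25.4% and 27.4% of all genes were. The lower ones included the malate dehydrogenases MDH1 (-0.60) and MDH2 (-0.26) and the aspartate aminotransferases GOT1 (-0.35) and GOT2 (-0.37).

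The glutamate carrier SLC25A22 (ENSGALG00000039335) was lowest with FGF2 at 48 h. At 24 h its counts were 1383, 1129 and 1233 in control, 1002, 1169.7 and 1221 with DCA, 1262, 1397 and 1277 with FGF2 and 1063, 1349 and 1258 with both. Each treated group overlapped with control, and the DCA libraries lay below those with FGF2. At 48 h the counts were 1304, 1469 and 1391 in control, 2226, 1588 and 1565 with DCA, 889, 929.7 and 805 with FGF2 and 1719, 1584 and 1321 with both. The 3 FGF2 libraries lay below all others of either time. FGF2 lowered SLC25A22 at 48 h (-0.67 ± 0.13, adjusted p = 0.00015) and gave 0.075 (adjusted p = 0.72) at 24 h, and the difference was called (-0.74 ± 0.18, adjusted p = 0.0038). DCA added to FGF2 raised it at 48 h (0.81 ± 0.13, adjusted p = 1.7e-05). DCA alone raised it as well (0.35 ± 0.13, adjusted p = 0.04), but that call was lost without control 48 h replicate 1, control 48 h replicate 3 or DCA 48 h replicate 1 (adjusted p up to 0.28). The interaction missed the threshold (0.46 ± 0.18, adjusted p = 0.061). At 48 h SLC25A22 and SLC25A24 moved in the direction of the mesenchyme markers given above with FGF2 and with DCA added to FGF2. With DCA alone both carriers were called higher, while the mesenchyme sum was 230400 to 332815, with 0 of 11 markers higher and 2 lower. Over all genes, 16.9% were higher and 17.1% lower with DCA alone. At 24 h the mesenchyme sum was 151571 to 164123 in control, 192281 to 223628 with DCA, 83088 to 110444 with FGF2 and 140280.5 to 205175 with both. FGF2 at 24 h called SLC25A24 higher (0.59) while that sum fell. DCA alone at 24 h called SLC25A24 higher (0.28) while that sum rose. SLC25A22 with either agent alone, and both carriers with DCA added to FGF2, were not called at 24 h. The part of these markers in the results was not tested.

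SLC25A21 (ENSGALG00000010117), which carries oxoadipate and oxoglutarate, had lower counts. They were 72.6, 77.8 and 155 in control, 205, 191 and 213 with DCA, 109.9, 107 and 164 with FGF2 and 187, 217 and 187 with both at 24 h. Those at 48 h were 83.9, 93.6 and 133 in control, 87.4, 94.6 and 154 with DCA, 124, 151 and 154 with FGF2 and 151, 202 and 186 with both. DCA raised it at 24 h, with every DCA library above every control (1.08 ± 0.27, adjusted p = 0.0077), while with FGF2 the DCA effect was 0.65 ± 0.27 (adjusted p = 0.066). At 48 h the DCA effect alone was 0.095 (adjusted p = 0.82), and the change between the times was not called (-0.98 ± 0.39, adjusted p = 0.15).

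**Figure D3:**
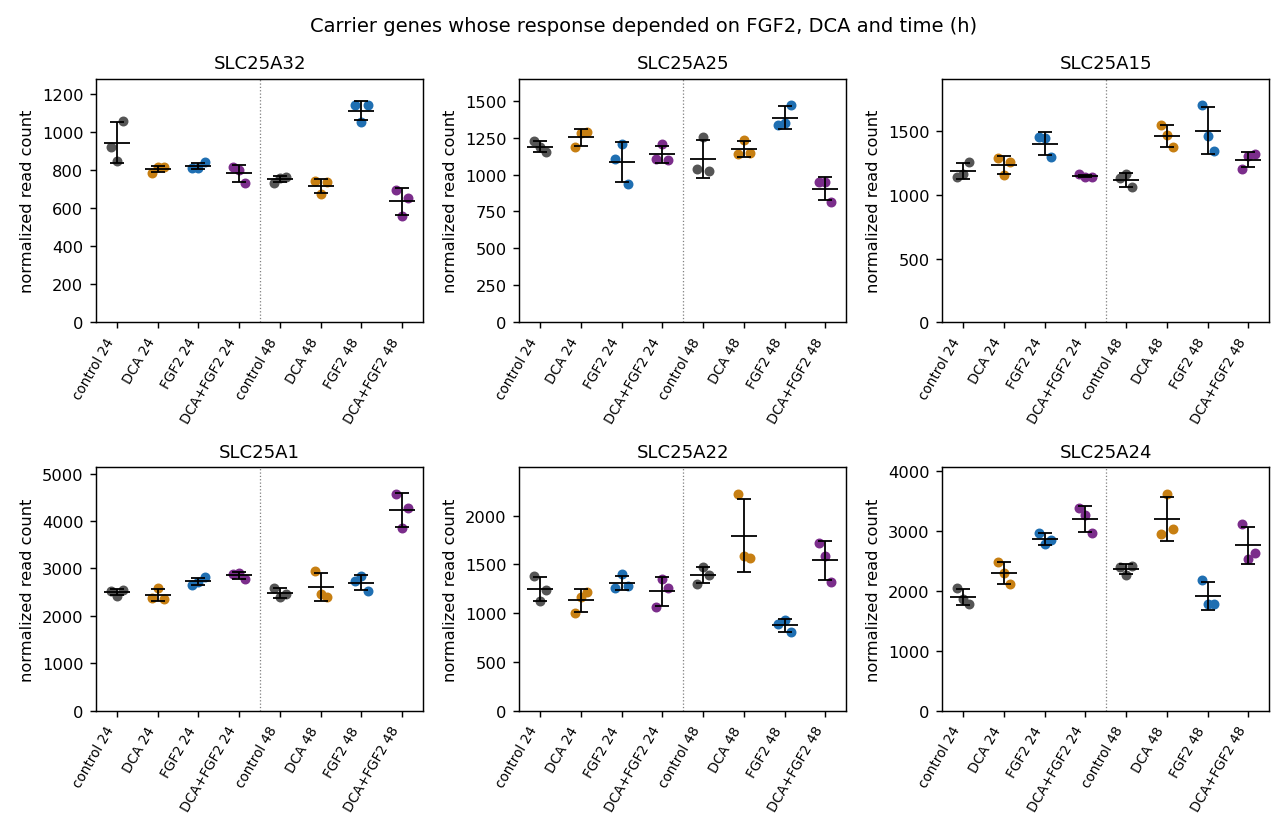
Normalized read counts of 6 carrier genes in each library (points) by treatment and time in h, with mean and SD (bars, n = 3 per group, each axis from 0). SLC25A32 and SLC25A25 are highest with FGF2 and lowest with both agents at 48 h, SLC25A1 is highest with both at 48 h, and SLC25A22 and SLC25A24 drop with FGF2 at 48 h.

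SLC25A20 (ENSGALG00000028227), which brings acylcarnitines into the matrix for fatty acid oxidation, fell with DCA. At 24 h its counts were 6345, 6554 and 6513 in control, 5757, 5890.2 and 5279 with DCA, 6074, 6163 and 5703 with FGF2 and 4865, 4738 and 4201 with both. By 48 h they were 6437, 6992 and 6626 in control, 4112, 5122 and 4925 with DCA, 6061, 6405 and 6523 with FGF2 and 3689, 4054 and 3876 with both. In each pair the DCA libraries lay wholly below those without DCA. The fall at 48 h was called without FGF2 (-0.51 ± 0.073, adjusted p = 1.9e-05) and with it (-0.71 ± 0.073, adjusted p = 5e-08), and at 24 h with FGF2 (-0.38 ± 0.073, adjusted p = 0.00035). DCA alone at 24 h missed the threshold (-0.20 ± 0.073, adjusted p = 0.058), and FGF2 alone gave -0.079 (adjusted p = 0.38) at 48 h. The enzymes that make or use acylcarnitines gave mixed calls. With DCA added to FGF2 at 48 h, 3 of 4 were higher, beside 25.4% of all genes, namely CPT1A (0.96), CROT (0.87) and CRAT (0.67), and CPT2 gave 0.035 (adjusted p = 0.73). With FGF2 against control at 48 h, 4 of 4 were lower, beside 27.7% of all genes, from -1.81 for CPT1A to -0.48 for CRAT. With DCA alone at 48 h, CPT1A (-0.51) and CPT2 (-0.33) fell with SLC25A20 and CROT rose (0.62).

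SLC25A29 (ENSGALG00000011220), a carrier of basic amino acids, rose with DCA where FGF2 was present. At 24 h it was 649.9, 617 and 599 in control, 878, 765 and 840.2 with DCA, 748, 768 and 749 with FGF2 and 1235, 1355 and 1157 with both. Its counts at 48 h were 907, 870.5 and 985 in control, 1113, 942 and 1118 with DCA, 681, 674 and 652 with FGF2 and 1194, 1147 and 1196 with both. The libraries with both agents were above all FGF2 libraries at both times. DCA raised it with FGF2 at 24 h (0.72 ± 0.084, adjusted p = 1.4e-06) and at 48 h (0.82 ± 0.084, adjusted p = 5.4e-08). Without FGF2 it rose at 24 h (0.41 ± 0.084, adjusted p = 0.0016) and missed the threshold at 48 h (0.20 ± 0.084, adjusted p = 0.075), and the interaction was called at 48 h (0.62 ± 0.12, adjusted p = 0.00049). The FGF2 effect turned its direction between 24 h (0.28 ± 0.084, adjusted p = 0.015) and 48 h (-0.46 ± 0.084, adjusted p = 8.6e-05), with the difference called (-0.74 ± 0.12, adjusted p = 8.1e-05). The 24 h FGF2 call was lost without control 24 h replicate 3 (adjusted p = 0.058). Controls rose between the times (0.56 ± 0.084, adjusted p = 8.4e-05). The mesenchyme markers fell with FGF2 at both times and rose with DCA added to FGF2 at both, so SLC25A29 moved with them in all of these but FGF2 at 24 h. Their part in the result was not tested.

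SLC25A15 (ENSGALG00000017032), the ornithine carrier that links the matrix with the urea cycle and polyamine synthesis, was raised by either agent at 48 h, but lowered by DCA where FGF2 was present. Its counts at 24 h were 1141, 1161 and 1262 in control, 1292, 1158 and 1258 with DCA, 1456, 1451 and 1299.6 with FGF2 and 1161, 1142 and 1143 with both. Those at 48 h were 1134, 1161 and 1059 in control, 1546, 1468 and 1377 with DCA, 1708, 1463 and 1347 with FGF2 and 1207, 1302 and 1320.2 with both. FGF2 (0.42 ± 0.083, adjusted p = 0.00018) and DCA (0.39 ± 0.083, adjusted p = 0.0011) each raised it at 48 h, whereas DCA added to FGF2 lowered it at 24 h (-0.29 ± 0.083, adjusted p = 0.011) and 48 h (-0.23 ± 0.083, adjusted p = 0.023). The interaction at 48 h was called (-0.62 ± 0.12, adjusted p = 0.00043). SLC25A15 was the 1 carrier called in opposite directions by DCA without and with FGF2 at 48 h. Over all genes tested, 474 were, of 5110 called without FGF2 and 7923 with it. The call of SLC25A15 with FGF2 was lost without FGF2 48 h replicate 1 or DCA+FGF2 48 h replicate 1 (adjusted p up to 0.18). FGF2 at 24 h also raised it (0.24 ± 0.083, adjusted p = 0.034), a call lost without any 1 of the 6 libraries other than control 24 h replicate 3 or FGF2 24 h replicate 3 (adjusted p up to 0.12, without FGF2 24 h replicate 1). Among 7 genes listed for folate-dependent and ornithine metabolism, FGF2 at 48 h raised 1 and lowered 3, beside 26.9% and 27.7% of all genes. Their changes ran from -1.82 to 0.41, and the arginine and ornithine enzymes ARG2 and OAT gave -1.16 and -0.93. SLC25A44, a carrier of branched-chain amino acids, rose with DCA at 48 h alone (0.33 ± 0.086, adjusted p = 0.0056) and with FGF2 (0.27 ± 0.086, adjusted p = 0.012), the latter lost without FGF2 48 h replicate 3 or DCA+FGF2 48 h replicate 3 (adjusted p up to 0.081). SLC25A38, a glycine carrier needed for heme synthesis in yeast and human red cells, was called in none of the 11 comparisons made and ran from 126 to 266 normalized counts over the libraries.

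Among the 9 tested carriers of nucleotides and cofactors, SLC25A39 and SLC25A33 were higher and SLC25A42 was lower in each of the 4 comparisons of DCA, alone or with FGF2, at either time. SLC25A39 (ENSGALG00000042894), which human cells need to bring glutathione into mitochondria, was 3602, 3126 and 3132 in control, 3934, 4158 and 4397 with DCA, 4169.7, 3966 and 3658 with FGF2 and 4114, 4602 and 4602 with both at 24 h. After 48 h it was 2885, 3009.7 and 3023 in control, 5355, 4840.3 and 5006 with DCA, 4197, 4646 and 4310 with FGF2 and 6498, 6240.2 and 6532 with both, with the 4 groups fully apart. DCA raised it by 0.34 ± 0.068 at 24 h (adjusted p = 0.0012) and 0.77 ± 0.068 at 48 h (adjusted p = 5.7e-08), and this gain in the DCA effect (0.43 ± 0.10, adjusted p = 0.013) was the 1 call among the carriers for a change of the DCA effect with time, or 2.7% beside 4.91% of all genes (2.67% higher and 2.24% lower). With FGF2 present, DCA raised it at 24 h (0.18 ± 0.068, adjusted p = 0.049) and 48 h (0.55 ± 0.068, adjusted p = 6.7e-07), the former call lost without any 1 of the 6 libraries other than FGF2 24 h replicate 1 or DCA+FGF2 24 h replicate 1 (adjusted p up to 0.21, without FGF2 24 h replicate 3). FGF2 alone also raised SLC25A39 at 24 h (0.26 ± 0.068, adjusted p = 0.0058) and 48 h (0.56 ± 0.068, adjusted p = 4.5e-07), with a larger effect at 48 h (0.30 ± 0.10, adjusted p = 0.022) that was lost without control 24 h replicate 1, FGF2 24 h replicate 3, control 48 h replicate 1 or FGF2 48 h replicate 2 (adjusted p up to 0.073). At 48 h both agents together gave 6424 ± 159.7 beside 2972 ± 76.5 in control. Its paralog SLC25A40 had a value above 0 in 3 libraries, at 20, 7.67 and 3.3 normalized counts, all of them FGF2 libraries, and was not tested. A count of 0 in each of the other 21 libraries leaves room for an expected count of up to 3 reads.

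SLC25A33, a pyrimidine nucleotide carrier, rose with DCA at 24 h (0.42 ± 0.085, adjusted p = 0.0015) and 48 h (0.40 ± 0.085, adjusted p = 0.0011), and with FGF2 present at 24 h (0.30 ± 0.085, adjusted p = 0.0082) and 48 h (0.31 ± 0.085, adjusted p = 0.0048). FGF2 raised it at 24 h (0.25 ± 0.085, adjusted p = 0.028), lost without any 1 of the 6 libraries other than FGF2 24 h replicate 2 or FGF2 24 h replicate 3 (adjusted p up to 0.14, without FGF2 24 h replicate 1), and that effect was smaller at 48 h (-0.36 ± 0.12, adjusted p = 0.03), lost without control 24 h replicate 1, FGF2 24 h replicate 1, control 48 h replicate 1, control 48 h replicate 3 or FGF2 48 h replicate 3 (adjusted p up to 0.079). In control at 48 h it was 1057 ± 17.2 beside 1399 ± 113 with DCA. SLC25A36, which carries pyrimidine nucleotides as well, had no higher call against control or FGF2: it fell with FGF2 at 48 h (-0.36 ± 0.068, adjusted p = 0.00012) and with DCA at 48 h (-0.20 ± 0.068, adjusted p = 0.03), the latter lost without any 1 of the 6 libraries other than control 48 h replicate 3 or DCA 48 h replicate 1 (adjusted p up to 0.12, without control 48 h replicate 1). SLC25A42 (ENSGALG00000002621), a coenzyme A carrier, was 652, 674 and 647 in control, 480.2, 517 and 449 with DCA, 530.3, 590.1 and 576 with FGF2 and 455, 412 and 378 with both at 24 h. By 48 h it was 680.2, 643 and 839 in control, 430.2, 386 and 515 with DCA, 566, 646 and 561 with FGF2 and 359.5, 459 and 485 with both. The DCA libraries lay below those without DCA in each pair. DCA alone lowered it at 24 h (-0.45 ± 0.13, adjusted p = 0.019) and 48 h (-0.70 ± 0.13, adjusted p = 0.00032), and did so with FGF2 at 24 h (-0.45 ± 0.13, adjusted p = 0.011) and 48 h (-0.45 ± 0.13, adjusted p = 0.0061). Of these, the call for DCA alone at 24 h was lost without control 24 h replicate 2, DCA 24 h replicate 1 or DCA 24 h replicate 3 (adjusted p up to 0.072), and that with FGF2 at 48 h without DCA+FGF2 48 h replicate 1 (adjusted p = 0.055). SLC25A16, a relative of SLC25A42 whose cargo is less settled, rose with DCA at 48 h both alone (0.51 ± 0.11, adjusted p = 0.0017) and with FGF2 (0.53 ± 0.11, adjusted p = 0.00051), and alone at 24 h (0.42 ± 0.11, adjusted p = 0.013), the last lost without DCA 24 h replicate 1 (adjusted p = 0.085).

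**Figure D4:**
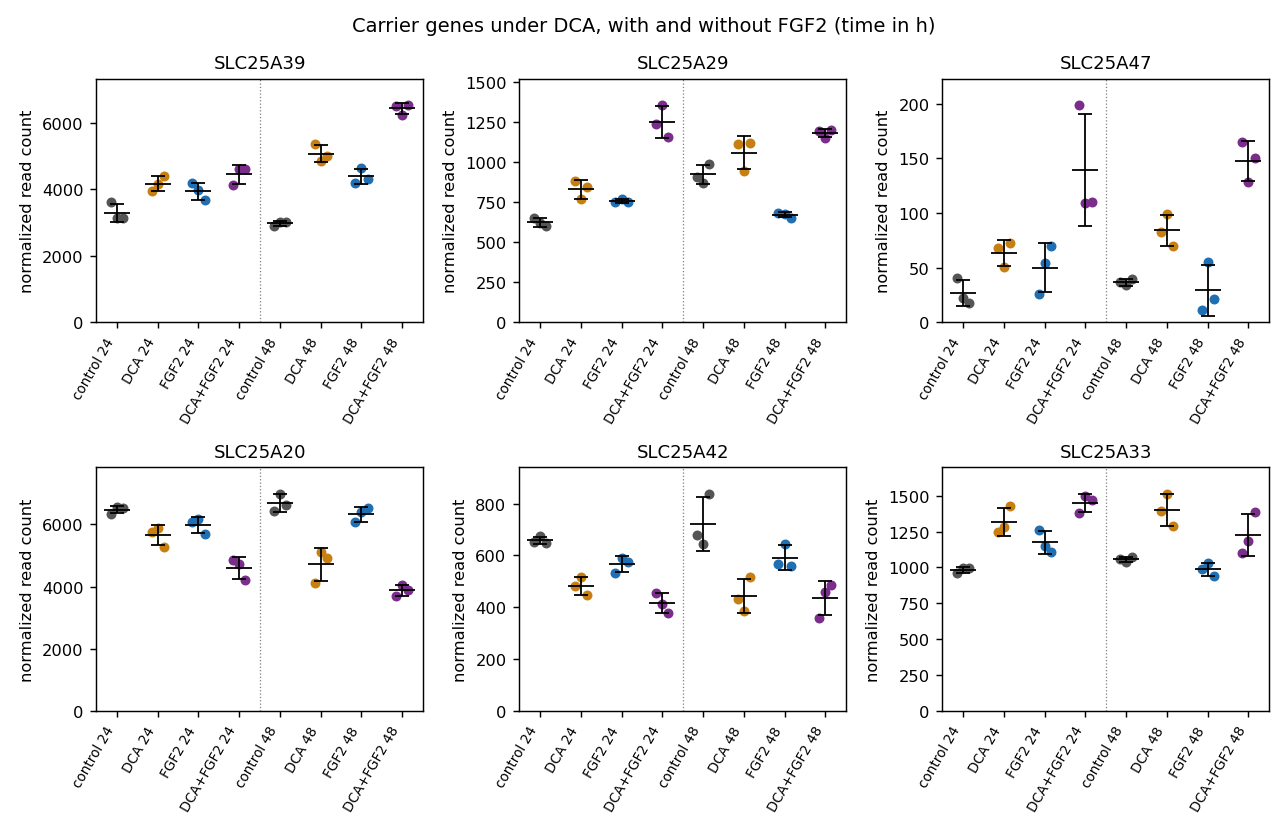
Normalized read counts of 6 carrier genes in each library (points) by treatment and time in h, with mean and SD (bars, n = 3 per group, each axis from 0). In each pair of groups without and with DCA, SLC25A39, SLC25A29, SLC25A47 and SLC25A33 have the higher mean with DCA, and SLC25A20 and SLC25A42 the lower.

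SLC25A32 (ENSGALG00000039882), the mitochondrial folate carrier, combined a rise with FGF2 and a loss when DCA was added. Counts at 24 h were 919.9, 849 and 1060.1 in control, 787, 814 and 817 with DCA, 811, 811 and 842 with FGF2 and 817, 799 and 734 with both. The counts at 48 h were 733, 756 and 765 in control, 740.5, 675 and 737 with DCA, 1143, 1054 and 1142 with FGF2 and 696, 558 and 654 with both. The 3 FGF2 libraries were highest at 48 h, and the lowest value, 558, came from a library with both agents. FGF2 raised SLC25A32 at 48 h (0.57 ± 0.091, adjusted p = 1.8e-05) and gave -0.19 (adjusted p = 0.12) at 24 h, with the change called (0.76 ± 0.13, adjusted p = 0.00014). DCA lowered it with FGF2 at 48 h (-0.81 ± 0.091, adjusted p = 1.8e-07) and gave -0.066 (adjusted p = 0.61) without, and this was the interaction with the smallest adjusted p among the carriers (-0.74 ± 0.13, adjusted p = 0.00017). The retinal progenitor markers rose with FGF2 and fell with added DCA at 48 h too. At 24 h their sum was 23798 to 25851 in control, 66885 to 72133 with FGF2 and 47610 to 51518 with both. SLC25A32 did not rise with FGF2 at that time. The part of these markers in the SLC25A32 result was not tested. Of the mitochondrial folate enzymes, MTHFD2 rose when DCA was added to FGF2 at 48 h (0.46 ± 0.13, adjusted p = 0.0064) and with DCA alone (0.51 ± 0.13, adjusted p = 0.0054), and MTHFD1L rose with DCA alone (0.92 ± 0.13, adjusted p = 2.4e-05). Among 7 genes listed for folate-dependent and ornithine metabolism, DCA alone at 48 h raised 3 and lowered 4, beside 16.9% and 17.1% of all genes, with changes from -1.15 to 0.92. DCA added to FGF2 at 48 h raised 2 and lowered 2 of them, beside 25.4% and 27.4%, with changes from -0.91 to 0.46.

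SLC25A17, a peroxisomal cofactor carrier, was higher with FGF2 at 48 h (0.19 ± 0.07, adjusted p = 0.029) and lower with DCA added to FGF2 at 24 h (-0.20 ± 0.07, adjusted p = 0.027). The 48 h call was lost without any 1 of the 6 libraries other than control 48 h replicate 2 or FGF2 48 h replicate 1 (adjusted p up to 0.11, without control 48 h replicate 1), and the 24 h call without any 1 of the 6 libraries other than FGF2 24 h replicate 2 or DCA+FGF2 24 h replicate 3 (adjusted p up to 0.11, without FGF2 24 h replicate 1). SLC25A26, the S-adenosylmethionine carrier, was called in none of the 11 comparisons.

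The iron carriers SLC25A37 (mitoferrin 1) and SLC25A28 (mitoferrin 2) feed heme and iron-sulfur synthesis, and in zebrafish and mouse the former serves red cell precursors. SLC25A37 (ENSGALG00000000378) was 173, 257 and 215 in control, 204, 261 and 252 with DCA, 205, 184 and 201 with FGF2 and 144, 203 and 224 with both at 24 h. Its counts at 48 h were 116, 111 and 131 in control, 258, 173 and 221 with DCA, 145, 139 and 117 with FGF2 and 280, 227 and 212 with both, with both groups that received DCA above both that did not. DCA raised it at 48 h alone (0.84 ± 0.20, adjusted p = 0.0023) and with FGF2 (0.83 ± 0.20, adjusted p = 0.0012), while controls fell between the times (-0.83 ± 0.20, adjusted p = 0.0057). Red blood cell markers summed to 95340.3 to 130476 in control at 24 h, 51692 to 81511 in control at 48 h and 33309 to 44395 with DCA at 48 h. Their sum at 48 h was 10908 to 19290.5 with FGF2 and 17907 to 31070.3 with both agents. Of 9, 4 were lower and 1 higher in control at 48 h than at 24 h, beside 7.3% and 9.69% of all genes, when SLC25A37 fell. DCA alone at 48 h lowered 9 of 9, and DCA added to FGF2 raised 3 and lowered 4, when SLC25A37 rose. Over all genes, DCA alone lowered 17.1%, and DCA added to FGF2 raised 25.4% and lowered 27.4%. Their part in the SLC25A37 result was not tested. ABCB10, a partner of SLC25A37 in mouse red cells, was lower in both comparisons (-0.38 and -1.06). SLC25A28 rose with FGF2 at 48 h (0.43 ± 0.095, adjusted p = 0.00059), from 819 ± 61.6 to 1100 ± 11.5, and fell with DCA added to FGF2 at 24 h (-0.40 ± 0.095, adjusted p = 0.0026). Its fall in control with time (-0.30 ± 0.095, adjusted p = 0.03) was lost without any 1 of the 6 libraries other than control 24 h replicate 3 or control 48 h replicate 1 (adjusted p up to 0.14, without control 24 h replicate 1). The genes of heme and iron-sulfur synthesis showed 4 of 9 higher and 2 lower with FGF2 at 48 h, and 1 higher and 4 lower with DCA added to FGF2 at 48 h. These are 66.7% and 55.6% called, beside 54.6% and 52.8% of all genes.

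UCP3, a muscle member of the uncoupling proteins in mammals, was near the limit of detection. It had 11, 44.9 and 37.9 normalized counts with FGF2 at 48 h and 0, 0 and 0 in control, with 5.6, 9.01 and 7.01 with DCA and 2.07, 5.85 and 5.4 with both. Control at 24 h had 18.1, 0 and 0, so the 3 values of 0 at 48 h do not bound the control level, and no fold is given. Its mean was 10.1 over all libraries and 7.07 over the 21 libraries other than FGF2 at 48 h. UCP3 thus passed the filter only through the group in which it was high, and its calls at 48 h are no test of that difference. At 24 h no group had more than 20.3 in any library, and no call was made. The UCP relatives SLC25A14 and SLC25A30 had called changes of 0.20 to 0.27. SLC25A14 was higher with DCA at 48 h (0.27 ± 0.07, adjusted p = 0.0048), with FGF2 at 48 h (0.20 ± 0.07, adjusted p = 0.022) and with DCA added to FGF2 at 24 h (0.21 ± 0.07, adjusted p = 0.024). The FGF2 call was lost without control 48 h replicate 3 or FGF2 48 h replicate 3 (adjusted p up to 0.13), and the last without any 1 of the 6 libraries other than FGF2 24 h replicate 3 or DCA+FGF2 24 h replicate 1 (adjusted p up to 0.14, without DCA+FGF2 24 h replicate 3). SLC25A30 was called once, with DCA added to FGF2 at 24 h (0.27 ± 0.10, adjusted p = 0.047), a call lost without any 1 of the 6 libraries other than DCA+FGF2 24 h replicate 2 (adjusted p up to 0.15, without DCA+FGF2 24 h replicate 1).

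Of the carriers with less settled cargo, SLC25A34, SLC25A47 and SLC25A48 had means under 100 normalized counts. Values of SLC25A47 and UCP3 are given per library although they fell outside the rule for this, a choice made after their values were seen. SLC25A47, known from mammalian liver, had 25.6, 54.2 and 70 with FGF2 and 199, 109 and 110.2 with both at 24 h (1.52 ± 0.45, adjusted p = 0.012). At 48 h it had 11, 55.4 and 21.4 with FGF2 and 165, 128 and 150.1 with both (2.58 ± 0.45, adjusted p = 6e-05), and every library with both agents was above every other library of that time. DCA without FGF2 was called at 24 h (1.29 ± 0.45, adjusted p = 0.049) and missed the threshold at 48 h (1.16 ± 0.45, adjusted p = 0.052). The 24 h calls were lost for DCA alone without any 1 of the 6 libraries other than control 24 h replicate 1 (adjusted p up to 0.17, without control 24 h replicate 3), and with FGF2 without FGF2 24 h replicate 1 or DCA+FGF2 24 h replicate 1 (adjusted p up to 0.088). SLC25A29, which also rose with DCA added to FGF2, is its neighbour among protein-coding genes in the RefSeq annotation of assembly GRCg7b, without overlap. SLC25A48 had 5.48 to 57.9 normalized counts over the 12 libraries at 48 h. It was lower with FGF2 (-1.58 ± 0.62, adjusted p = 0.035) and higher with both than with FGF2 (1.88 ± 0.62, adjusted p = 0.014), the first lost without any 1 of the 6 libraries other than control 48 h replicate 1 or FGF2 48 h replicate 2 (adjusted p up to 0.11, without FGF2 48 h replicate 1), and the second without FGF2 48 h replicate 1 or DCA+FGF2 48 h replicate 1 (adjusted p up to 0.084). SLC25A34 fell in control between the times (-1.05 ± 0.33, adjusted p = 0.034), a call lost without any 1 of the 6 libraries other than control 24 h replicate 3 or control 48 h replicate 3 (adjusted p up to 0.14, without control 24 h replicate 1). SLC25A43 and the outer membrane protein SLC25A46 were called in none of the 11 comparisons. SLC25A46 ran from 799.5 to 997 over the libraries.

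Whether DCA acted alike with and without FGF2 was tested as an interaction, that is, the difference between the DCA effects in the presence and in the absence of FGF2. At 24 h limma called 0 of 37 carriers, beside 2.92% of all genes (1.68% higher and 1.24% lower), with 5 at an unadjusted p under 0.05, and 0 were called by edgeR and 0 by DESeq2. It called 11 at 48 h, or 29.7% beside 30.1%, with 5 higher and 6 lower, beside 15.1% and 15% of all genes. The negative ones were SLC25A32, SLC25A25, SLC25A15, SLC25A5, SLC25A28 and UCP3, and the positive ones SLC25A29, SLC25A1, SLC25A4, SLC25A36 and SLC25A48. SLC25A36 was among the smaller ones (0.32 ± 0.10, adjusted p = 0.015). SLC25A28 (-0.36 ± 0.13, adjusted p = 0.046) was lost without any 1 of the 12 libraries other than control 48 h replicate 1 or DCA+FGF2 48 h replicate 3 (adjusted p up to 0.12, without control 48 h replicate 2). UCP3 entered the test only through its FGF2 libraries at 48 h, and 10 carriers are left without it. SLC25A48 (2.62 ± 0.87, adjusted p = 0.026) was lost without any 1 of the 12 libraries other than control 48 h replicate 1 or DCA 48 h replicate 1 or FGF2 48 h replicate 2 or FGF2 48 h replicate 3 or DCA+FGF2 48 h replicate 2 or DCA+FGF2 48 h replicate 3 (adjusted p up to 0.08, without DCA+FGF2 48 h replicate 1).

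**Figure D5:**
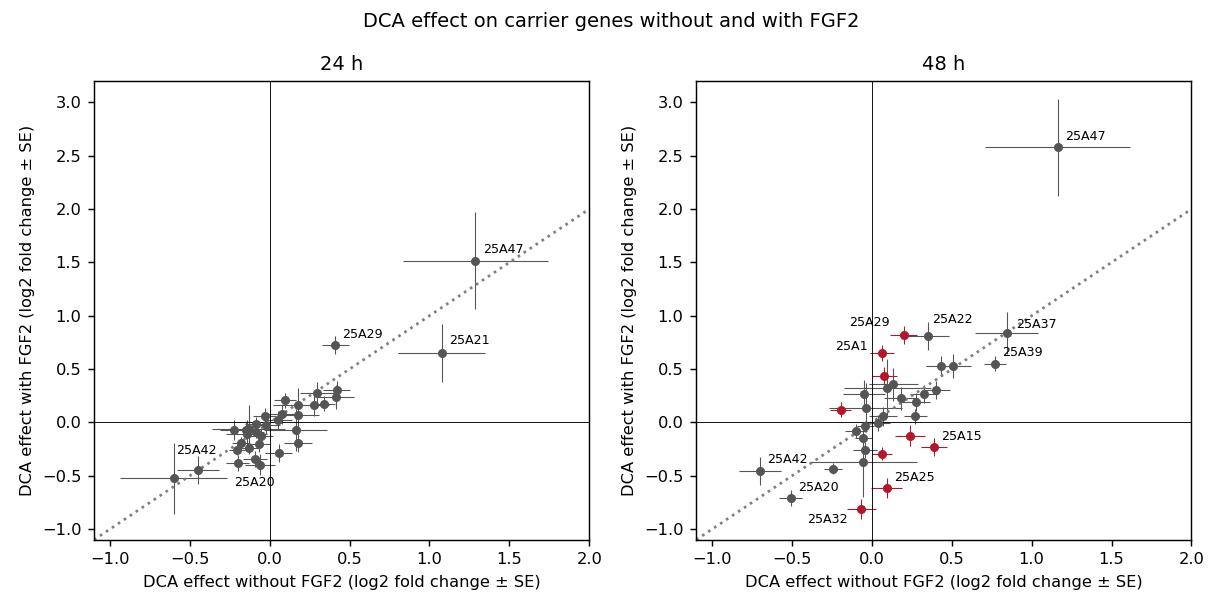
DCA effect on each of 34 carrier genes without FGF2 (horizontal axis) and with FGF2 (vertical axis), as log2 fold change ± SE, at 24 h and 48 h; the dotted line marks equal effects and UCP3 and SLC25A48, with few counts, are left out. Red marks an interaction with adjusted p under 0.05: none at 24 h, and at 48 h points such as SLC25A32 and SLC25A25 lie below the line and SLC25A29 and SLC25A1 above it.

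The DCA comparisons without and with FGF2 used different libraries. At 24 h, 8 carriers were called in the same direction in both, which is 72.7% of the 11 called alone and 50% of the 16 called with FGF2, and 0 in opposite directions. The shares over all genes tested were 70.4% and 39.5%. At 48 h it was 10, or 71.4% of 14 and 45.5% of 22, with 1 opposite, beside 60.5% and 39% over all genes. Opposite calls over all genes tested were 36 at 24 h, of 3016 called alone and 5373 with FGF2. At 48 h they were 474, of 5110 and 7923. Over all 4 DCA comparisons, 4 of 37 carriers (10.8%) were called each time in the same direction, beside 7.99% of all genes tested. They were SLC25A39 and SLC25A33, higher, and SLC25A6 and SLC25A42, lower. The calls of SLC25A39 and SLC25A6 at 24 h and of SLC25A42 at either time included some that were lost when single libraries were left out, as given above.

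Time in culture alone, control at 48 h against 24 h, changed 8 carriers, or 21.6% beside 17% of all genes, with 2 higher and 6 lower, beside 9.69% and 7.3%. Markers of other cells shifted over the same time. The mesenchyme sum went from a range of 151571 to 164123 to one of 325596 to 385092, with 5 of 11 markers higher and 1 lower, and that of leukocytes from one of 5635 to 6791 to one of 16072 to 22485, with 6 of 6 higher. Red blood cell markers had the ranges given above for SLC25A37. The part of these shifts in the carrier changes was not tested. SLC25A29 and SLC25A24 were higher, and SLC25A6, SLC25A3, SLC25A37, SLC25A32, SLC25A28 and SLC25A34 were lower. The call of SLC25A24 (0.31 ± 0.10, adjusted p = 0.026) was lost without any 1 of the 6 libraries other than control 24 h replicate 1 or control 48 h replicate 2 (adjusted p up to 0.1, without control 24 h replicate 3). That of SLC25A32 (-0.32 ± 0.091, adjusted p = 0.017) was lost without control 24 h replicate 3 or control 48 h replicate 1 (adjusted p up to 0.11). Without control 24 h replicate 2 or without control 48 h replicate 1, 5 calls were made in place of 8. The FGF2 effect differed between the times for 8 carriers, again 21.6%, beside 30.2% of all genes, with 3 higher and 5 lower, beside 14.7% and 15.4%. SLC25A24 and SLC25A29 were called in opposite directions by FGF2 at the 2 times. Over all genes tested, 275 were called in opposite directions, of 4466 called at 24 h and 8187 at 48 h. Another 6 carriers were called in the same direction. That is 66.7% of the 9 called at 24 h and 30% of the 20 at 48 h, beside 70.5% and 38.4% over all genes. These 6 were SLC25A5, SLC25A15, SLC25A39 and MPC2, higher, and SLC25A6 and SLC25A13, lower.

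Genes around the carriers gave a mixed picture. Of 11 outer membrane channels and import factors for carrier proteins, FGF2 raised 8 and lowered 0 at 48 h, beside 26.9% and 27.7% of all genes. Those raised included the receptor TOMM70 (0.43 ± 0.073, adjusted p = 3.9e-05) and TIMM22, the core of the carrier translocase (0.42 ± 0.089, adjusted p = 0.00041). DCA added to FGF2 at 48 h called 5, or 45.5% beside 52.8% of all genes. It lowered 4, including TIMM22 (-0.25 ± 0.089, adjusted p = 0.02), and raised 1, the channel VDAC1 (0.46 ± 0.10, adjusted p = 0.00056). Among 7 regulators of mitochondrial genes, DCA added to FGF2 at 48 h raised 4 and lowered 3, beside 25.4% and 27.4% of all genes. PPARGC1A, a coactivator of mitochondrial genes, fell with FGF2 against control (-2.11 ± 0.27, adjusted p = 7.6e-07) and rose when DCA was added (2.43 ± 0.27, adjusted p = 1.3e-07). TFAM, which maintains mitochondrial DNA, rose with FGF2 (0.67 ± 0.057, adjusted p = 2.3e-09) and fell when DCA was added (-0.76 ± 0.057, adjusted p = 5e-10). These comparisons share the FGF2 libraries.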

How the data were processed

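RNA was sequenced from 24 libraries, 3 per group. Per the submitters' processing notes, the authors used Trim Galore 0.6.4, STAR 2.7.5b, StringTie 2.1.4 and DESeq2 1.34.0 with the chicken build GRCg6a. Which program counted the reads, and with what strand setting, is not given in the sources used here. The deposited signal is a normalized read count, a count divided by 1 size factor per library, per the labels and the values: division by each library's smallest step gave whole reads for 100% of values within 0.001.

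Here log2(normalized count + 1) of 15001 genes, those whose mean over all libraries was 10 or more, was fitted with limma 3.58.1 (R 4.3.3), as 1 model of 8 group means with 16 residual degrees of freedom. There were 11 contrasts, each with Benjamini-Hochberg adjustment over all genes tested. The code was tested on simulated data. Alternatives were TMM scaling, added counts of 0.5 and 10, no filter, a mean of at least 50, only the groups compared, a replicate block, edgeR 4.0.16 and DESeq2 1.42.0 on the recovered reads, and leaving out each library.

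The carriers, lists and tests were chosen with earlier results of these data known. Per-library values are given for 11 carriers with a mean of at least 100 and the largest called changes, and, chosen after their values were seen, for SLC25A6 and a few others. The values of 1 tested carrier enter the counts but are not reported here. Of the 38 symbols, 36 matched RefSeq (GRCg7b), and no coordinates or sequences are given because the builds differ.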

Additional observations from a re-analysis of the deposited data

Results flagged for a closer look

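At 48 h, 11 carriers had a DCA effect that differed between explants with and without FGF2 by the interaction test. That is 29.7% of the carriers tested, beside 30.1% of all genes tested. The log2 differences were -0.74 for SLC25A32, -0.71 for SLC25A25, -0.62 for SLC25A15, -0.36 for SLC25A28 and -0.36 for SLC25A5, so the DCA effect on these was lower where FGF2 was present. They were 0.62 for SLC25A29, 0.58 for SLC25A1, 0.36 for SLC25A4 and 0.32 for SLC25A36. That of SLC25A48 (2.62) rests on low counts. UCP3 (-5.45) is counted among the 11 but passed the filter only through its FGF2 libraries at 48 h, so its value is a description and 10 carriers are left without it.

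The FGF2 effect at 48 h minus that at 24 h passed the test for 8 carriers, or 21.6% beside 30.2% of all genes tested. This difference was -0.90 for SLC25A24, -0.74 for SLC25A22, -0.74 for SLC25A29, -0.36 for SLC25A33 and -0.29 for SLC25A13. It was 0.76 for SLC25A32, 0.47 for SLC25A25 and 0.30 for SLC25A39. The DCA effect changed with time for SLC25A39, by 0.43, the 1 such call, or 2.7% beside 4.91% of all genes tested.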

How the results depend on the processing

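The 120 calls of carriers over 11 comparisons were repeated 1914 times under the alternatives, and 0 changed direction; 75 were never lost and 45 were lost at least once. TMM scaling, a mean of at least 50 and DESeq2 lost 0 of the calls they could test, edgeR lost 2, added counts of 0.5 and 10 lost 1 each, and no filter lost 11. A model of only the groups compared lost 27, which took FGF2 at 24 h from 9 calls to 5 and DCA at 24 h from 11 to 5, and lost 3 calls that no left-out library ended: SLC25A21 with DCA at 24 h, and SLC25A14 and SLC25A44 with DCA at 48 h. DESeq2 gave no adjusted p for UCP3 in the interaction at 48 h.

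Leaving out 1 library at a time lost 144 of 840. The number of carriers called then ran from 6 to 8 for FGF2 at 24 h, 16 to 19 for FGF2 at 48 h, 7 to 10 for DCA at 24 h (7 without DCA 24 h replicate 1), 12 to 14 for DCA at 48 h, 11 to 14 and 19 to 22 for DCA added to FGF2 at 24 and 48 h, 0 to 1 and 8 to 13 for the interaction at 24 and 48 h (1 without DCA+FGF2 24 h replicate 3), 5 to 7 for control over time, 7 to 9 for the FGF2 effect over time and 1 to 2 for the DCA effect over time (2 without control 24 h replicate 3 or DCA 48 h replicate 2).

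Same-numbered libraries of different groups did not deviate together: over 84 pairs r ran from -0.09 to 0.1, with a median of 0.01, so the numbers were not taken as pairs. With the replicate number as a block, the counts were 8 and 19 for FGF2 at 24 and 48 h, 12 and 14 for DCA, 16 and 22 for DCA added to FGF2, 0 and 11 for the interaction, 8 for control over time, 9 for the FGF2 effect over time and 1 for the DCA effect over time. The block lost 4 of the 120 calls. These were MPC2 with FGF2 at 48 h and, at 24 h, SLC25A13 with FGF2, SLC25A47 with DCA and SLC25A39 with DCA added to FGF2. Of the 12 calls for DCA at 24 h, 10 were shared with the main model. With 3 libraries per group, UCP3 and SLC25A40, with 0 reads in some libraries, allow no firm statement on absence. SLC25A48 was detected in every library, but at only 5 to 56 reads.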
